A study of Homo sapiens with 24 samples.

Results

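The 2 hairpins that silence PAX8 were compared with each other in 786-M1A cells, a clear cell renal cell carcinoma (ccRCC) line. The comparison used 4 RNA-seq libraries labelled shPAX8-1 and 4 labelled shPAX8-2, which are 8 of the 24 libraries of the series. They were taken by their titles. The series also holds the same 2 constructs in a second ccRCC line, OS-LM1 (8 libraries), and 4 libraries per line carrying sgNTC18, a non-targeting guide RNA.

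786-M1A is a metastatic derivative of the 786-O line and OS-LM1 a metastatic derivative of OS-RC2, both grown in RPMI with serum and both with a mutated VHL gene. Per the study's methods the hairpins are expressed from doxycycline-inducible lentiviral plasmids, whereas sgNTC18 is a guide RNA and no hairpin, so its libraries are given here only as levels beside a result and not as the control of a knockdown. Nothing in the labels says that the 4 libraries of a group came from separate cultures, so the p-values measure the spread between these libraries, which may be technical. In bulk RNA, fewer cells of a kind and less RNA per cell cannot be told apart.

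PAX8 is a paired-box transcription factor that specifies the renal and thyroid epithelial lineages and remains expressed in renal carcinoma. VHL loss in ccRCC leaves the hypoxia-inducible factor HIF2A, the product of EPAS1, stable in normal oxygen. A short hairpin RNA is processed to a guide strand that directs an Argonaute protein to a fully complementary transcript, which is cut. The seed, guide bases 2 to 8, can also pair with the 3′ untranslated regions (3′ UTRs) of other transcripts and lower them moderately, so 2 hairpins against 1 gene share the intended target but not the seed.

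The guide and target of each hairpin are shown because the difference between the constructs lies in these 22 bases. Sequences run 5′ to 3′, targets are read on the strand of the transcript, and capitals mark the seed in the guide and the bases opposite it in the target.

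shPAX8-1 guide: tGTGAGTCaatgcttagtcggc

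shPAX8-1 target in PAX8: gccgactaagcattGACTCACa

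shPAX8-2 guide: tAGAGTTGtgttaataatggag

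shPAX8-2 target in PAX8: ctccattattaacaCAACTCTa

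The shPAX8-1 target lies at chr2:113241690-113241711 (GRCh38, minus strand), in coding sequence in exon 7 of 12 of the canonical PAX8 transcript. The shPAX8-2 target lies at chr2:113218122-113218143 on the same strand, in the 3′ UTR, in exon 12 of 12. The guides share no seed, and 50.0% of the bases of shPAX8-1 are G or C against 31.8% of those of shPAX8-2.

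The 8 libraries held gene counts that summed to 16421429 to 19928571 for shPAX8-1 and 11634419 to 18218051 for shPAX8-2. The labelled cell type was checked against ccRCC markers. VIM, an intermediate filament gene of ccRCC, was abundant, at 7528 to 8526 CPM (counts scaled to a common library size), whereas CA9 and NDUFA4L2, both HIF targets used as ccRCC markers, were nearly absent in all 8 libraries, at no more than 0.162 and 0.647 CPM. Of 11 immune and blood cell markers 4 were at 0 throughout, among them CD3E, MS4A1 and HBA1. The summed level of that list was 203 to 310 CPM with shPAX8-1 and 311 to 404 CPM with shPAX8-2, and CD68, a lysosomal glycoprotein gene not restricted to immune cells, gave nearly all of it. The 7 endothelial markers summed to 1.99 to 2.21 CPM with shPAX8-1 and 1.00 to 1.74 CPM with shPAX8-2, with none at 0 throughout. The 8 fibroblast markers summed to 203 to 425 CPM and 671 to 891 CPM, mostly from PDGFRB, while DCN did not exceed 0.0471 CPM.

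The shPAX8-1 libraries stood apart from each other. Among genes at an average log2 CPM of at least 3, the standard deviation (SD) of the log2 difference between 2 libraries was 0.25 for shPAX8-1 libraries 1 and 2 and 0.16 for libraries 3 and 4. Between these pairs it was 0.45 to 0.58, with 104 to 665 genes more than 2-fold apart. The shPAX8-2 libraries differed among themselves by 0.15 to 0.34, with 4 to 29 such genes. The shPAX8-1 libraries therefore fell into the pairs 1, 2 and 3, 4, and values without shPAX8-1 libraries 3 and 4 are given below for genes that lost their call in that fit or whose value moved by over 1.5 times.

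The split followed the GC content of transcripts. The slope of expression on GC content, in log2 CPM per 10 percentage points of GC and relative to the mean of the 8 libraries, was 0.10 and −0.02 in shPAX8-1 libraries 1 and 2, but −0.42 and −0.44 in libraries 3 and 4. In shPAX8-2 libraries 1 to 4 it was 0.25, 0.30, 0.03 and 0.20. The ranges overlapped, since shPAX8-1 library 1 lay above shPAX8-2 library 3, and the difference between the constructs was −0.39 (exact permutation test over libraries, two-sided p = 0.0571, where the smallest p this design allows is 0.0286). Relative to the mean of all 24 libraries, the slope was 0.18, 0.06, −0.34 and −0.36 in 786-M1A shPAX8-1 libraries 1 to 4. In 786-M1A shPAX8-2 libraries 1 to 4 it was 0.33, 0.38, 0.11 and 0.28. It was −0.44 to −0.05 in the OS-LM1 hairpin libraries and 0.02 to 0.13 in the OS-LM1 sgNTC18 libraries. The 786-M1A sgNTC18 libraries lay at 0.20 to 0.50. Whether RNA quality, library preparation or the hairpins gave the GC trend was not tested.

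Across the 13741 tested genes with a known GC content, the rank correlation between GC content and the log2 difference between the constructs was −0.56, a description over genes that share 8 libraries. In the lowest of 10 groups of equal size ordered by GC content (29.2 to 38.2%) the median log2 difference was 0.50, with 46.2% of genes higher and 2.18% lower with shPAX8-1. In the highest (61.1 to 74.8%) it was −0.55, with 2.11% higher and 43.8% lower. The same trend showed along chromosomes: GC-rich chromosome 19 had a median log2 difference of −0.32, with 51 genes higher and 295 lower, and it was −0.06 once the trend was removed by a smooth function of GC content fitted in each library. Values with the GC trend removed are therefore given below for genes that lost their call or direction in that fit or whose value moved by over 1.5 times.

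**Figure D1:**
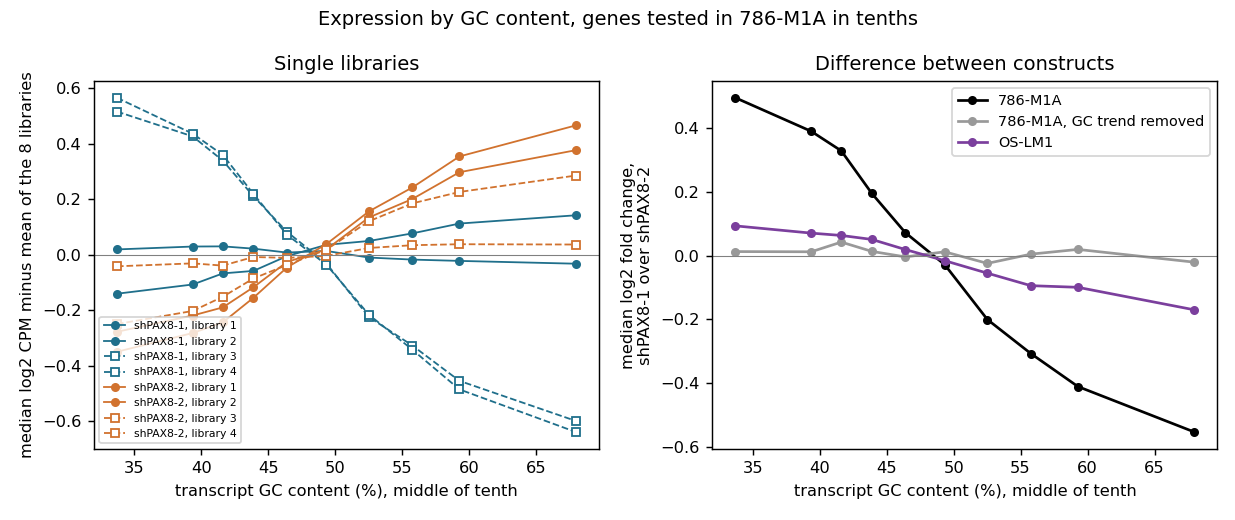
Tested genes are set in 10 groups of equal size by transcript GC content (horizontal axes, percent): the left panel plots the median log2 level of each of the 8 libraries relative to their mean, and the right panel the median log2 difference between shPAX8-1 and shPAX8-2 in 786-M1A, in 786-M1A with the GC trend removed, and in OS-LM1. The 786-M1A medians go from 0.50 in the most GC-poor group to −0.55 in the most GC-rich, and in the left panel shPAX8-1 libraries 3 and 4, with slopes of −0.42 and −0.44, fall most steeply.

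Of 14013 genes tested, 5772 (41.2%) differed between the 2 hairpins by edgeR's quasi-likelihood test at a Benjamini-Hochberg adjusted p under 0.05. Of these, 3003 (21.4%) were higher and 2769 (19.8%) lower with shPAX8-1, and in 37.1% of all genes tested the 4 libraries of one construct did not overlap those of the other. With the GC trend removed 6162 genes were called, 3222 (23.0%) higher and 2940 (21.0%) lower. Of the 5772, 4219 kept their call and direction. Without shPAX8-1 libraries 3 and 4 the count was 3400, with 1635 (11.3%) higher and 1765 (12.2%) lower, and without libraries 1 and 2 it was 8886.

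The 2 pairs of libraries could be fitted apart, since libraries 1 and 2 of both constructs share none with libraries 3 and 4. This split was chosen after seeing the data. Among 13710 genes tested in both fits, 5107 were called in libraries 1 and 2 and 8186 in libraries 3 and 4. The fits shared 4451 calls, 87.2% of the first list and 54.4% of the second, of which 4440 had the same direction. The 87.2% is to be read against 8186 called of all 13710 genes, and the 54.4% against 5107. The median size of the log2 difference of the shared genes was 0.61 in libraries 1 and 2 and 0.92 in libraries 3 and 4.

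PAX8 itself, the gene both hairpins target, was lower with shPAX8-1. Its level was 22.9, 21.9, 15.2 and 14.8 CPM in the 4 shPAX8-1 libraries and 41.4, 45.5, 42.6 and 40.0 CPM in the 4 shPAX8-2 libraries. Every shPAX8-1 library lay below every shPAX8-2 library, and shPAX8-1 libraries 3 and 4 were the lowest. The means were 18.7 ± 4.31 and 42.4 ± 2.36 CPM (SD, n = 4 each), a log2 difference of −1.18 ± 0.16 (standard error) with an adjusted p of 0.00055 by edgeR. The difference in log2 CPM had a p of 0.0286 by the exact permutation test (two-sided), the smallest that 4 against 4 libraries allow. It was −0.83 with the GC trend removed and −0.92 without shPAX8-1 libraries 3 and 4, both past the threshold. The sgNTC18 libraries of this line had 292 to 393 CPM of PAX8, above both constructs.

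Of 4 other genes the study follows, 3 were lower and 1 higher with shPAX8-1. CCND1, which encodes cyclin D1, had 466, 368, 362 and 341 CPM with shPAX8-1 and 932, 945, 724 and 654 CPM with shPAX8-2, so that the highest shPAX8-1 library lay below the lowest shPAX8-2 library (log2 difference −1.09 ± 0.15, adjusted p = 0.00052 by edgeR). MYEOV, its neighbour on chromosome 11, had 34.8, 25.3, 25.0 and 23.8 CPM against 54.7, 57.7, 43.7 and 52.7 CPM, again without overlap (−0.94 ± 0.15, adjusted p = 0.0012). EPAS1, which encodes HIF2A, had 375, 290, 299 and 281 CPM against 588, 632, 447 and 450 CPM (−0.77 ± 0.15, adjusted p = 0.0027). MYEOV was at −0.57 with the GC trend removed. CCND1 (−0.57, adjusted p = 0.00093) and MYEOV (−0.49, adjusted p = 0.018) were also lower with shPAX8-1 in OS-LM1. In that line PAX8 (−0.01, adjusted p = 0.97) and EPAS1 (−0.25, adjusted p = 0.06) did not pass the edgeR test.

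MYC, the oncogenic transcription factor, went the other way from PAX8. It had 220, 189, 247 and 243 CPM with shPAX8-1 against 148, 157, 148 and 145 CPM with shPAX8-2, and the groups did not overlap (log2 difference 0.59 ± 0.11, adjusted p = 0.0026). The sgNTC18 libraries averaged 622 CPM of CCND1, between the 2 constructs. They averaged 140 CPM of MYEOV, above both constructs, and 202 CPM of EPAS1 and 114 CPM of MYC, below both. Between the hairpins in OS-LM1, MYC did not pass the edgeR test (−0.17, adjusted p = 0.35).

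**Figure D2:**
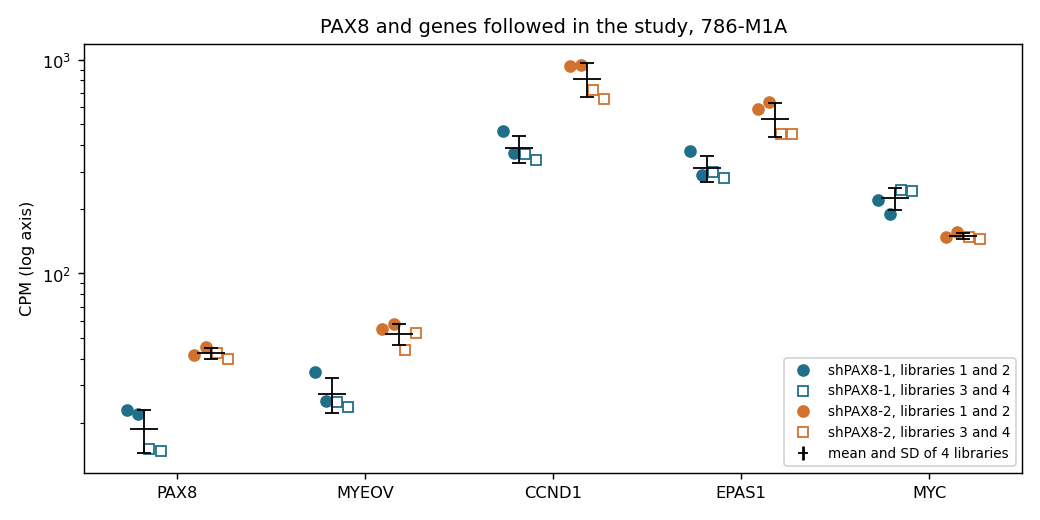
The CPM of PAX8 and 4 other genes the study follows is plotted on a log axis for each library of shPAX8-1 and shPAX8-2 in 786-M1A, with filled circles for libraries 1 and 2, open squares for libraries 3 and 4, and black bars for the mean and SD of 4 libraries. PAX8 sits between 14.8 and 22.9 CPM with shPAX8-1 and between 40.0 and 45.5 CPM with shPAX8-2, and MYC is the 1 gene of the 5 that is higher with shPAX8-1.

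The genes with the largest differences were taken by rule among well-expressed genes whose groups did not overlap and whose direction held with the GC trend removed. The 8 lowest with shPAX8-1 were MMP24 (−2.59), PSKH1 (−2.53), RAB36 (−2.42), BSG (−2.02), FURIN (−1.98), P2RY6 (−1.95), the antisense transcript MMP25-AS1 (−1.93) and ZBTB47 (−1.92), all on the log2 scale. MMP24 encodes a membrane-type matrix metalloproteinase, FURIN the proprotein convertase that activates such enzymes, and P2RY6 a receptor for extracellular nucleotides. BSG encodes basigin, a surface glycoprotein that chaperones lactate transporters. It had 453, 394, 321 and 314 CPM with shPAX8-1 and 1529, 1507, 1330 and 1656 CPM with shPAX8-2 (adjusted p = 1.2e-05 by edgeR). No shPAX8-1 library reached the lowest shPAX8-2 library. Whether counting used the strand is not given in the sources used here, so MMP25-AS1 may hold reads of the gene it overlaps.

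The 8 highest with shPAX8-1 were KRTAP2-3 (3.90), LIPG (3.04), CXCL8 (2.98), ABI3BP (2.88), ANKRD1 (2.85), IDI1 (2.58), ATP6V0D2 (2.54) and ADAMTS6 (2.42). KRTAP2-3 is one of several near-identical keratin-associated protein genes, so its counts are uncertain. ANKRD1, a stress-responsive ankyrin-repeat protein and well-known target of the YAP coactivator, had 188, 217, 228 and 232 CPM with shPAX8-1 and 28.2, 30.4, 33.6 and 27.8 CPM with shPAX8-2 (log2 difference 2.85 ± 0.12, adjusted p = 6.9e-07). CXCL8, which encodes the neutrophil chemokine interleukin-8, had 30.1, 37.0, 62.8 and 64.6 CPM against 6.77, 6.47, 6.30 and 4.93 CPM (2.98 ± 0.26, adjusted p = 3.7e-05). For both genes the constructs were far apart, and for CXCL8 shPAX8-1 libraries 3 and 4 were also well above libraries 1 and 2. LIPG encodes endothelial lipase, and IDI1 an isomerase of the mevalonate pathway described below. The sgNTC18 libraries averaged 8.07 CPM of ANKRD1 and 38.3 CPM of IDI1.

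Seed matches in 3′ UTRs were counted for each hairpin over the GENCODE annotation of GRCh38. The letters searched on the transcript strand were GACTCAC for shPAX8-1 and CAACTCT for shPAX8-2, and 6.78% and 10.2% of the 19571 annotated 3′ UTRs held at least 1 copy. These 2 words differ, but a 3′ UTR can hold both, as that of AGO1 does. A match is a description and not a proven site.

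For the shPAX8-1 word, the median log2 difference was 0.02 over 11580 tested genes with no match, −0.17 over 856 genes with 1 match and −0.25 over 77 genes with 2 or more. The share called lower was 19.5%, 31.1% and 32.5% in the same order, against 19.8% of all genes tested, and the share called higher was 23.3%, 15.5% and 16.9%. The medians were 0.03, −0.19 and −0.36 with the GC trend removed. They were 0.01, −0.18 and −0.29 without shPAX8-1 libraries 3 and 4. Because a long 3′ UTR holds any word more often, genes were also divided into 4 groups of equal size by 3′ UTR length. In each group, from the shortest up, genes with a match had the lower median: −0.40 against −0.13, −0.48 against −0.04, −0.30 against 0.08 and −0.04 against 0.18. These values were, with the GC trend removed, −0.20 against 0.08, −0.27 against 0.03, −0.25 against 0.01 and −0.14 against −0.0043.

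For the shPAX8-2 word, the median log2 difference was −0.01 over 11105 genes with no match, 0.13 over 1206 with 1 match and 0.21 over 202 with 2 or more, and the share called higher was 21.7%, 30.8% and 32.2%, against 21.4% of all genes. The median GC content of these 3 groups was 48.3%, 44.7% and 41.9%. With the GC trend removed the medians were 0.02, 0.04 and 0.02. In the 4 groups by 3′ UTR length, genes with and without a match had medians of −0.15 against −0.14, −0.05 against −0.06, 0.18 against 0.03 and 0.17 against 0.14. Removing the GC trend gave −0.0059 against 0.07, 0.07 against 0.03, 0.08 against −0.02 and 0.02 against −0.02.

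The same counts in OS-LM1, whose libraries are separate from those of 786-M1A, gave medians of −0.01, −0.14 and −0.20 for genes with no, 1 and 2 or more shPAX8-1 matches. They gave −0.02, 0.00 and 0.04 for the shPAX8-2 word. The share called lower in OS-LM1 among genes with 2 or more shPAX8-1 matches was 31.4%, against 12.5% of all genes tested there.

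**Figure D3:**
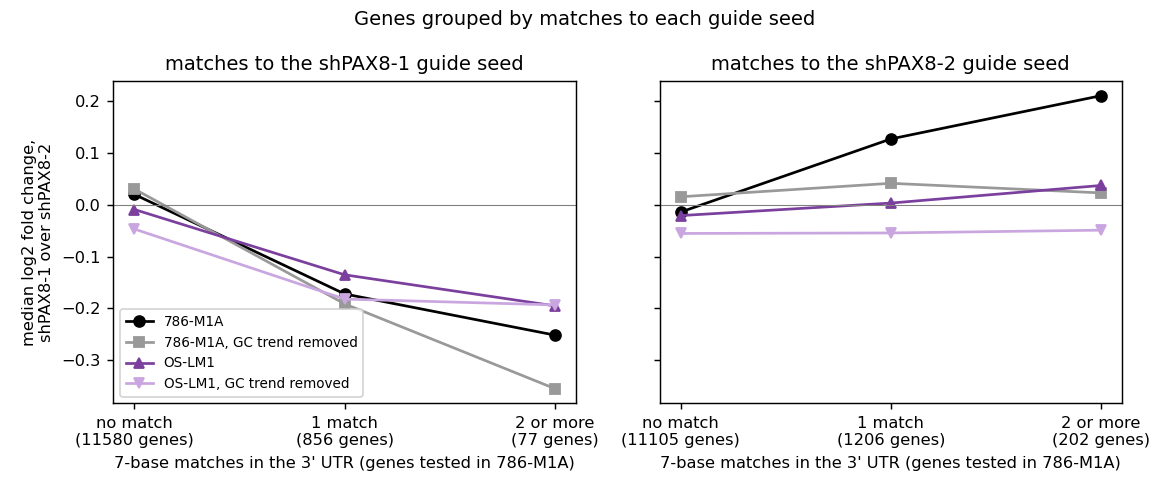
The plot shows the median log2 difference between shPAX8-1 and shPAX8-2 (vertical axis) of genes with no, 1, or 2 or more 7-base seed matches in the 3′ UTR, for each hairpin's seed (1 panel each), in 786-M1A before and after the GC trend was removed and in OS-LM1. Medians for the shPAX8-1 seed go from 0.02 to −0.25 before and from 0.03 to −0.36 after, whereas those for the shPAX8-2 seed go from −0.01 to 0.21 before and stay between 0.02 and 0.04 after.

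Among called genes with 2 or more shPAX8-1 matches, the lowest included MYADM (−1.65), HEMK1 (−1.37), CTNS (−1.23), FAM132B (−1.23) and VDR (−1.16). MYADM encodes a membrane protein of lipid rafts, CTNS the lysosomal cystine exporter, and VDR the vitamin D receptor. MYADM had 352, 280, 232 and 224 CPM with shPAX8-1 and 901, 929, 782 and 789 CPM with shPAX8-2. The constructs did not overlap, and the gene was also lower in OS-LM1 (−1.59), as were CTNS (−1.03) and FAM132B (−1.32). HEMK1 (0.20, adjusted p = 0.52 by edgeR) and VDR (−0.14, adjusted p = 0.47) were not called there. In 786-M1A FAM132B was at −0.68 with the GC trend removed.

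A site of MYADM is shown because this gene had the largest difference of the group, in the same direction in both lines. It is read on the transcript strand, and capitals mark bases that can pair with the shPAX8-1 guide when aligned without gaps.

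MYADM site at chr19:53876229-53876250: tCCtgCTtgtCtggGACTCACA

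The site lies in the 3′ UTR, in exon 3 of 3, and allows 13 of 22 pairs. The other match in this 3′ UTR, at chr19:53874831-53874852, allows fewer, 9 of 22.

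Besides PAX8, 3 tested genes held a run of at least 14 bases complementary to a guide from its base 2. They are shown because they are the longest matches outside the target, and capitals again mark bases that can pair. The match of shPAX8-1 lay in the coding sequence of LCOR, a ligand-dependent nuclear receptor corepressor, in exon 8 of 8. Those of shPAX8-2 lay in the noncoding transcript KCNQ1OT1 and in the coding sequence of MICU2, a regulator of the mitochondrial calcium uniporter (exon 8 of 12).

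LCOR site at chr10:96982826-96982847: atgatacAAGCATTGACTCACt

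KCNQ1OT1 site at chr11:2631837-2631858: ggatATTATTAACACAACTCTA

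MICU2 site at chr13:21510063-21510084: acCtgaaATTAACACAACTCTt

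LCOR had 35.7, 31.9, 50.9 and 48.9 CPM with shPAX8-1 and 19.1, 17.6, 15.4 and 15.9 CPM with shPAX8-2. It was thus higher with the hairpin it can pair with (log2 difference 1.29 ± 0.17, adjusted p = 0.00042 by edgeR), although 14 bases in a row from guide base 2 are complementary. In OS-LM1 its log2 difference was 0.09 (adjusted p = 0.68). KCNQ1OT1, with 17 such bases opposite shPAX8-2, had a log2 difference of 0.12 (adjusted p = 0.54). MICU2, with 14, was lower with shPAX8-2, the hairpin it can pair with (0.65, adjusted p = 0.039), but not with the GC trend removed (0.22, adjusted p = 0.22) or without shPAX8-1 libraries 3 and 4 (0.22, adjusted p = 0.44).

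Among called genes with 2 or more shPAX8-2 matches, the highest with shPAX8-1 were PAQR3 (1.52, with 4 matches), CALU (1.32), PLEKHB2 (1.30), SCD (1.28), METTL9 (1.16) and ATP2B1 (1.15). SCD encodes the stearoyl-CoA desaturase of fatty acid synthesis, and CALU a calcium-binding protein of the secretory pathway. All 6 stayed called with the GC trend removed, at 0.72 to 1.25, with PAQR3 at 0.96 and ATP2B1 at 0.72. PAQR3 was at 0.98, METTL9 at 0.76 and ATP2B1 at 0.71 without shPAX8-1 libraries 3 and 4. In OS-LM1 CALU (0.49), METTL9 (0.44) and ATP2B1 (0.38) were called, whereas PAQR3 (−0.15), PLEKHB2 (−0.03) and SCD (−0.07) were not.

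The counts of gene lists that follow are given with the share of tested members called higher and then lower, to be read against 21.4% and 19.8% of all genes. With the GC trend removed the shares over all genes were 23.0% and 21.0%. Without shPAX8-1 libraries 3 and 4 they were 11.3% and 12.2%, and in OS-LM1 13.0% and 12.5%. List counts from those fits are to be read against these shares. Of the machinery that processes hairpins, 16 genes were tested, of which 3 were higher and 5 lower with shPAX8-1 (18.8% and 31.3%, median log2 difference −0.09, against −0.01 over all genes). AGO3 (0.77) and PRKRA (0.59), a partner of Dicer, were higher. They were at 0.40 and 0.24 with the GC trend removed, and PRKRA was at 0.36 without shPAX8-1 libraries 3 and 4. DGCR8 (−1.01), the partner of Drosha, and AGO1 (−0.98) were lower. DICER1 (0.24, adjusted p = 0.17), DROSHA (−0.07, adjusted p = 0.58) and AGO2 (0.21, adjusted p = 0.33), which encodes the Argonaute that cuts its target, did not pass the test.

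The gene list with the highest median was that of cholesterol synthesis and uptake, the targets of the transcription factor SREBP2. Of 26 members tested, 20 were higher and 1 lower with shPAX8-1 (76.9% and 3.85%), with a median log2 difference of 1.32. With the GC trend removed 23 were higher and 1 lower, and without shPAX8-1 libraries 3 and 4 the counts were 21 and 1. The largest value was that of the mevalonate pathway gene IDI1, which had 171, 163, 336 and 350 CPM with shPAX8-1 and 41.5, 42.9, 46.7 and 38.9 CPM with shPAX8-2 (2.58 ± 0.25, adjusted p = 6.9e-05 by edgeR). Every shPAX8-1 library was above every shPAX8-2 library, with shPAX8-1 libraries 3 and 4 highest.

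HMGCS1 (2.08), ACAT2 (1.80), FDFT1 (1.57), MVK (0.94), MVD (0.85) and FDPS (0.77) were also higher. In the sterol branch SQLE, the epoxidase of the first oxygenation step, had 475, 422, 663 and 671 CPM against 169, 157, 184 and 159 CPM (1.73), again without overlap, and CYP51A1 (1.88), MSMO1 (2.05), HSD17B7 (2.12), SC5D (1.24), DHCR7 (1.40), NSDHL (0.81) and EBP (0.69) were higher too. PMVK (0.03, adjusted p = 0.91), LSS (0.25, adjusted p = 0.26) and TM7SF2 (−0.33, adjusted p = 0.43) did not pass the test. MVD was at 1.38 and SC5D at 0.77 with the GC trend removed.

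INSIG1, the sterol sensor that retains SREBPs in the endoplasmic reticulum, had 1273, 864, 1423 and 1410 CPM with shPAX8-1 and 410, 389, 299 and 338 CPM with shPAX8-2 (1.79, adjusted p = 5.5e-05). INSIG1 showed a gap between the constructs, and STARD4, a sterol carrier, was higher by 2.37. Of the transcription factor genes, SREBF1 was lower (−1.21, adjusted p = 0.0014, and −0.69 with the GC trend removed), and SREBF2 (0.03, adjusted p = 0.91) and its escort SCAP (−0.39, adjusted p = 0.09) did not pass. STARD4 and SCD hold 1 and 2 copies of the shPAX8-2 word in the 3′ UTR, but matches also lie in genes that went the other way. BTG2 (−1.49), MYEOV (−0.94) and UHRF1 (−1.52) hold the shPAX8-2 word and were lower with shPAX8-1. LIPG (3.04), SLC30A1 (1.47) and IFIT1 (1.24) hold the shPAX8-1 word and were higher. Of 202 genes with 2 or more shPAX8-2 matches, 65 were called higher and 18 lower. Of 77 with 2 or more shPAX8-1 matches, 13 were called higher and 25 lower.

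In OS-LM1 the same 26 genes gave 6 higher and 3 lower, with a median of 0.18, where 13.0% of all genes tested were higher and 12.5% lower. INSIG1 (0.70), STARD4 (0.78), ACAT2 (0.62) and FDFT1 (0.67) were higher there, SREBF1 (−0.83) was lower, and CYP51A1 (−0.02, adjusted p = 0.91) and SQLE (0.13, adjusted p = 0.37) did not pass. The test of the difference between the lines called 18 of the 26, all lower in OS-LM1, against 22.9% of 15101 genes in either direction.

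**Figure D4:**
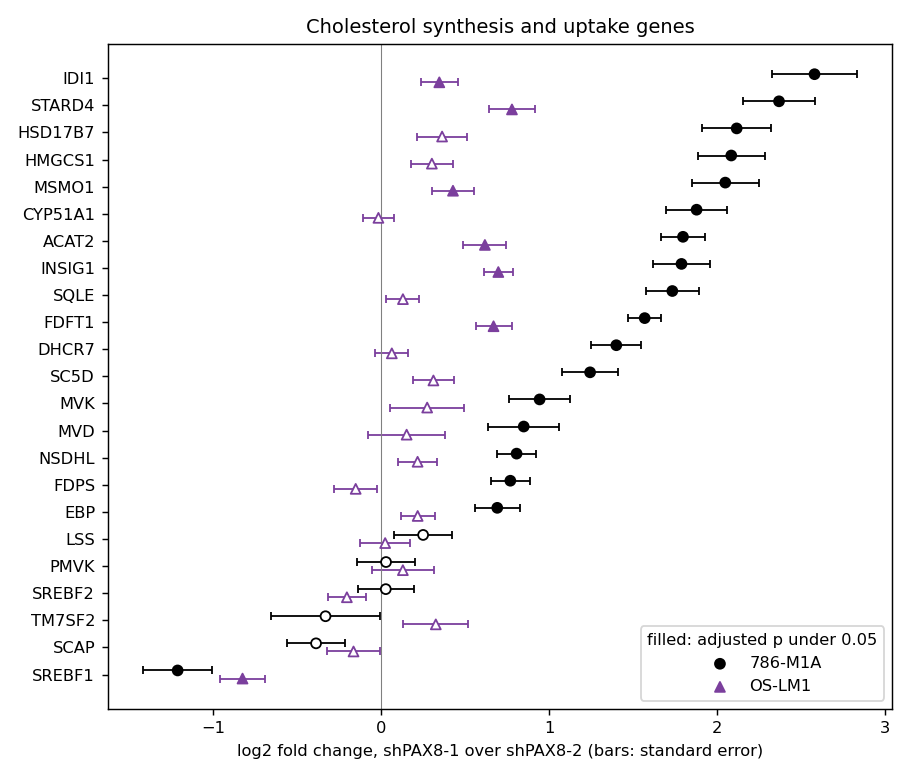
For 23 of the 26 cholesterol genes on the vertical axis, points show the log2 difference between shPAX8-1 and shPAX8-2 (horizontal axis) in 786-M1A and in OS-LM1, with bars for the standard error and filled symbols for genes that passed the test. The 17 genes shown that were higher with shPAX8-1 in 786-M1A lie between 0.69 and 2.58, SREBF1 lies at −1.21, and the OS-LM1 values lie between −0.83 and 0.78.

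Of 27 genes of NF-kB signalling, cytokines and chemokines, 14 were higher with shPAX8-1, 2 were lower and 11 did not pass (51.9% and 7.41% called), with a median log2 difference of 0.56. Besides CXCL8, IL1A (2.75), IL1B (2.31), CSF2 (2.28), CXCL5 (1.32), IL6 (1.28), CXCL2 (1.00) and CXCL1 (0.82) were higher, as were BIRC3 (2.26), an inhibitor of apoptosis, TNFAIP3 (1.26), a deubiquitinase that restrains NF-kB, and SOD2 (1.05). IL1B, an inflammatory cytokine, had 21.4, 17.6, 22.8 and 21.8 CPM with shPAX8-1 and 4.72, 4.80, 3.56 and 3.53 CPM with shPAX8-2. There was no overlap, and all 4 shPAX8-1 libraries were alike. CXCL5 was at 0.87 with the GC trend removed, and CXCL2 was not called without shPAX8-1 libraries 3 and 4 (0.59, adjusted p = 0.27).

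Of the factors themselves NFKB1 was higher by 0.45, but at 0.0071 with the GC trend removed (adjusted p = 0.98), while RELA (−0.31, adjusted p = 0.10), NFKB2 (−0.21, adjusted p = 0.31) and the inhibitor NFKBIA (0.02, adjusted p = 0.93) did not pass. IL11 was lower (−0.73), but not with the GC trend removed (−0.39, adjusted p = 0.055). TNFAIP2 was lower by −0.43 in the uncorrected values and 0.09 with the GC trend removed, where it was not called (adjusted p = 0.53), nor was it without shPAX8-1 libraries 3 and 4 (−0.28, adjusted p = 0.12). In OS-LM1 9 of 29 were higher and 7 lower (median −0.05). IL1A (1.53), IL1B (1.40), CSF2 (1.27) and BIRC3 (0.98) were higher in that line as well, and CCL2, TNFAIP3 and LIF went the other way there (−1.12, −0.63 and −0.78, against 0.67, 1.26 and 0.56 in 786-M1A). In 786-M1A CCL2 was not called without shPAX8-1 libraries 3 and 4 (0.44, adjusted p = 0.13), and LIF was at 0.94 with the GC trend removed.

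Interferon-stimulated genes moved in both directions. In 786-M1A 7 of 46 tested were higher and 10 lower (15.2% and 21.7%, against 21.4% and 19.8% of all genes), with a median log2 difference of −0.01. The counts were 11 and 14 with the GC trend removed. IFIT3 (1.66), IFIT1 (1.24) and IFIT2 (1.27), which bind foreign RNA, were higher, as were OAS2 (2.20), OAS1 (1.14), IFIH1 (0.94), which senses double-stranded RNA, and EIF2AK2 (0.75), the RNA-activated kinase PKR. Without shPAX8-1 libraries 3 and 4 IFIT1 was at 0.74 and IFIH1 at 0.56, and OAS1 was not called (1.12, adjusted p = 0.065). TRIM22 (−1.12), SAMD9L (−1.12), IFI35 (−1.18), PARP9 (−0.79) and STAT2 (−0.62) were lower. MX1 (0.13, adjusted p = 0.77) and ISG15 (0.39, adjusted p = 0.17) did not pass. EIF2AK2 was at 0.36 and IFI35 at −0.77 with the GC trend removed. In OS-LM1 24 of 47 were higher and 1 lower (median 0.36), among them MX1 (1.62) and IFIT3 (2.01), and SAMD9L was higher there (1.65). The test of the difference between the lines called 13 higher and 1 lower in OS-LM1.

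Of 43 S-phase genes 2 were higher and 21 lower with shPAX8-1 (4.65% and 48.8%, median −0.47), and 2 and 29 with the GC trend removed. The helicase gene MCM5 had 17.1, 19.2, 10.2 and 8.84 CPM with shPAX8-1 and 41.2, 34.9, 34.6 and 40.9 CPM with shPAX8-2 (log2 difference −1.45 ± 0.23, adjusted p = 0.0011 by edgeR). UHRF1, which maintains DNA methylation after replication, was lower by −1.52. Both had a gap between the constructs. POLR1B (0.67) was higher, and GMNN, the replication licensing inhibitor geminin, was higher by 0.62. GMNN lost its call with the GC trend removed (adjusted p = 0.057) and without shPAX8-1 libraries 3 and 4 (adjusted p = 0.46). In OS-LM1 1 of 43 S-phase genes was higher and 31 lower (median −0.54), against 13.0% and 12.5% of all genes tested there.

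Of 54 G2/M genes 32 were higher and 2 lower with shPAX8-1 (59.3% and 3.70%, median 0.55). These genes are GC-poor, with a median GC content of 43.0%, and with the GC trend removed the counts were 36 and 3 and the median was 0.33. Without shPAX8-1 libraries 3 and 4, 11 were called, all higher, with a median of 0.33. TTK, a kinase of the spindle checkpoint, had 50.7, 67.0, 117 and 127 CPM with shPAX8-1 and 27.4, 26.9, 43.2 and 32.0 CPM with shPAX8-2 (1.48 ± 0.28, adjusted p = 0.0024). CDK1, the mitotic kinase, had 36.8, 46.0, 85.9 and 90.6 CPM against 24.2, 23.9, 34.1 and 32.1 CPM (1.18 ± 0.27, adjusted p = 0.0067). In both, shPAX8-1 libraries 3 and 4 were well above libraries 1 and 2, and library 1 lay just above the highest shPAX8-2 library. CDK1 was at 0.67 with the GC trend removed, and without libraries 3 and 4 TTK was at 0.87 and CDK1 at 0.54. TUBB4B (−0.43) and CDCA3 (−0.40) were lower, but TUBB4B was at 0.01 with the GC trend removed, and neither was called without libraries 3 and 4. In OS-LM1 1 of 54 G2/M genes was higher and 23 lower (median −0.33), and the test between lines called 37, all lower in OS-LM1.

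Among 28 cyclins, cyclin-dependent kinases and their inhibitors, 8 were higher and 12 lower (28.6% and 42.9%), and 5 and 9 without shPAX8-1 libraries 3 and 4. CDK6 (0.94), a partner of cyclin D1, and MXD1 (1.17), an antagonist of MYC, were higher. CDKN1A, which encodes the inhibitor p21, had 223, 180, 183 and 174 CPM with shPAX8-1 and 421, 427, 382 and 425 CPM with shPAX8-2 (−1.13 ± 0.11, adjusted p = 6.8e-05), without overlap. CDK6 was at 0.59 and CDKN1A at −0.71 with the GC trend removed. In OS-LM1 the log2 difference of CDKN1A was 0.01 (adjusted p = 0.93).

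Of 29 p53 target genes, a list that includes CDKN1A, 4 were higher and 12 lower (13.8% and 41.4%, median −0.25), and 2 and 10 without those libraries. DDB2 (−1.74), a DNA damage recognition gene, and BTG2 (−1.49), an antiproliferative gene, were lowest. GADD45A (1.53) was higher, and PLK2 (0.59) was higher but not called without shPAX8-1 libraries 3 and 4 (adjusted p = 0.14). In OS-LM1 4 of 30 were higher and 3 lower, and BTG2 was higher (0.45) while DDB2 did not pass (−0.10, adjusted p = 0.58).

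Of 13 HIF subunits and regulators, 1 was higher and 3 lower with shPAX8-1 (7.69% and 23.1%). EPAS1 was described above. EGLN3, a prolyl hydroxylase that is itself a HIF target, had 99.0, 76.4, 88.7 and 83.4 CPM with shPAX8-1 and 192, 185, 185 and 182 CPM with shPAX8-2 (−1.10 ± 0.11, adjusted p = 7.4e-05), and HIF1AN, an asparaginyl hydroxylase that limits HIF activity, was lower by −0.92. The elongin gene listed as TCEB1, a part of the VHL complex, was higher (0.92), at 0.42 with the GC trend removed and 0.43 without shPAX8-1 libraries 3 and 4. HIF1A (0.25, adjusted p = 0.24), ARNT (−0.05, adjusted p = 0.75), the partner of both HIFs, and VHL (0.11, adjusted p = 0.50) did not pass.

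Of 38 HIF target genes 6 were higher and 18 lower (15.8% and 47.4%, median −0.37). The counts were 5 and 22 with the GC trend removed and 2 and 16 without shPAX8-1 libraries 3 and 4. TGFA, a ligand of the epidermal growth factor receptor, had 203, 189, 200 and 189 CPM with shPAX8-1 and 606, 550, 595 and 550 CPM with shPAX8-2 (−1.56 ± 0.09, adjusted p = 7.6e-06). The libraries of each construct were nearly alike and the constructs far apart. CXCR4 (−1.78), the chemokine receptor, SLC2A1 (−1.13), the glucose transporter GLUT1, PFKFB4 (−1.07), LOXL2 (−0.89), PLIN2 (−0.86), a lipid droplet protein, CA12 (−0.71) and VEGFA (−0.65) were lower. STC2 (1.11), PDK1 (0.56), ALDOC (0.56), HK2 (0.53), BNIP3 (0.44) and KDM3A (0.42) were higher. With the GC trend removed PDK1 (0.18, adjusted p = 0.26) and KDM3A (0.17, adjusted p = 0.10) lost their calls, VEGFA was at −0.37, LOXL2 at −0.50 and ALDOC at 0.86. Without shPAX8-1 libraries 3 and 4 PDK1, HK2, BNIP3 and KDM3A were not called (adjusted p = 0.18, 0.066, 0.068 and 0.26). ENO1 (−0.06, adjusted p = 0.65), PGK1 (0.12, adjusted p = 0.49) and LDHA (−0.18, adjusted p = 0.29), all of glycolysis, did not pass. In OS-LM1 7 of 40 were higher and 14 lower (median −0.10).

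**Figure D5:**
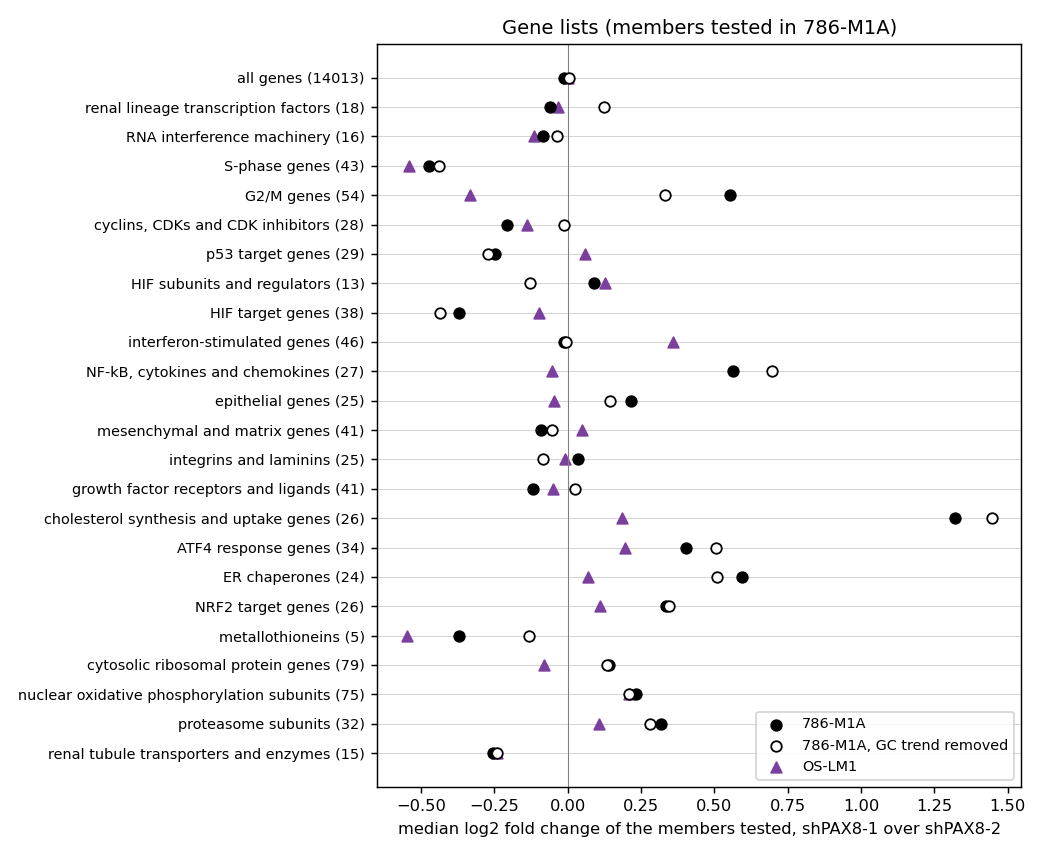
Each row is a gene list with its number of tested members, with points for the median log2 difference between shPAX8-1 and shPAX8-2 (horizontal axis) of its tested members in 786-M1A, with the GC trend removed, and in OS-LM1. Cholesterol genes lie farthest to the right in 786-M1A, at 1.32, and S-phase genes lie farthest to the left, at −0.47, with the G2/M genes at 0.55 in 786-M1A and −0.33 in OS-LM1.

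Of 24 endoplasmic reticulum chaperones and related genes 17 were higher with shPAX8-1 and 2 lower (70.8% and 8.33%, median 0.60), among them MANF (1.33), PDIA6 (1.23), DNAJB9 (1.09), HSP90B1 (1.07), HSPA5 (0.87), the main chaperone, and EIF2AK3 (0.88), the sensor kinase PERK. P4HB (−0.53) and EDEM1 (−0.29) were lower. MANF had 383, 378, 477 and 520 CPM with shPAX8-1 and 153, 167, 181 and 195 CPM with shPAX8-2 (adjusted p = 7.7e-05), without overlap. HSP90B1 was at 0.70, DNAJB9 at 0.60 and P4HB at −0.18 with the GC trend removed. HSPA5 was at 0.56, DNAJB9 at 0.50, EIF2AK3 at 0.40 and P4HB at −0.35 without shPAX8-1 libraries 3 and 4. In OS-LM1 4 of 24 were higher and 3 lower.

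Of 34 genes of the ATF4 response 17 were higher, 1 was lower and 16 did not pass (50.0% and 2.94% called, median 0.40). The counts were 25 higher and 1 lower with the GC trend removed. SLC7A11, the cystine transporter, had 55.3, 40.8, 85.3 and 84.0 CPM with shPAX8-1 and 18.7, 16.3, 16.4 and 14.5 CPM with shPAX8-2 (2.01 ± 0.23, adjusted p = 0.00016). DDIT3 (1.72), which encodes CHOP, PSAT1 (1.35) of serine synthesis, ASNS (1.08), asparagine synthetase, and the transfer RNA synthetase genes WARS (0.92), AARS (0.66), GARS (0.65) and YARS (0.61) were higher, GARS at 0.27 with the GC trend removed. ATF4 itself (0.27, adjusted p = 0.11), TRIB3 (0.39, adjusted p = 0.12) and CHAC1 (−0.03, adjusted p = 0.94) did not pass, and VEGFA was lower.

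Of 26 NRF2 targets, a list that shares SLC7A11, 12 were higher and 3 lower (46.2% and 11.5%, median 0.34). AKR1C1 (1.80), a member of a family of similar aldo-keto reductase genes whose counts may be shared, was higher. ABCC3 (−1.28), an export pump, was lower. Of 5 metallothionein and zinc genes tested, SLC30A1 (1.47), a zinc exporter, was higher, and MT1E (−0.80) and MT2A (−0.48, and −0.23 with the GC trend removed) were lower, which is 20.0% and 40.0% of the 5.

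Of 18 renal lineage transcription factors 6 were higher and 4 lower with shPAX8-1 (33.3% and 22.2%). The 4 include PAX8 itself, the target of both hairpins. PAX2, the paralogue of PAX8, was lower, with 7.69, 6.50, 6.20 and 6.02 CPM against 15.0, 13.3, 13.2 and 12.3 CPM (−1.03 ± 0.14, adjusted p = 0.00056), and was −0.47 with the GC trend removed. FOXC1 (1.11) and HNF4G (1.00) were higher, HNF4G at 0.50 with the GC trend removed and 0.65 without shPAX8-1 libraries 3 and 4. In OS-LM1 3 of 20 were called, all lower. They included FOXC1 (−0.88), and PAX2 did not pass (−0.33, adjusted p = 0.11). Of 15 tubule transporters and enzymes tested, of 39 listed, 2 were higher and 6 lower (13.3% and 40.0%). MME (0.70), the brush border peptidase, and CYP27B1 (0.51), which makes active vitamin D, were higher. GGT1 (−0.72) and ANPEP (−0.73) were lower, ANPEP without a call when shPAX8-1 libraries 3 and 4 were left out (adjusted p = 0.059). In that fit MME was at 0.42 and GGT1 at −0.43. MME was at 0.28, CYP27B1 at 0.89, GGT1 at −0.24 and ANPEP at −0.31 with the GC trend removed.

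Of 25 epithelial genes 8 were higher and 6 lower (32.0% and 24.0%). The tight junction genes CLDN1 (0.89) and CLDN12 (0.81) were higher, and the keratins KRT18 (−0.61) and KRT8 (−0.58) were lower, KRT8 not with the GC trend removed (−0.26, adjusted p = 0.064) or without shPAX8-1 libraries 3 and 4 (−0.27, adjusted p = 0.13). KRT18 was at −0.30 and CLDN12 at 0.37 with the GC trend removed, and CLDN12 was at 0.51 without those libraries. Of 41 mesenchymal and matrix genes 10 were higher and 14 lower (24.4% and 34.1%). The transcription factors SNAI2 (1.47) and ZEB1 (0.74), both repressors of epithelial genes, were higher in 786-M1A and in OS-LM1 (1.00 and 0.54). SNAI2 had 96.0, 85.8, 124 and 129 CPM with shPAX8-1 and 37.3, 37.2, 45.7 and 36.3 CPM with shPAX8-2. In 786-M1A ZEB1 was at 0.34 with the GC trend removed. MMP2 (−0.99), a gelatinase, was lower.

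Of 25 integrins and laminins 4 were higher and 6 lower (16% and 24%), and 6 and 9 with the GC trend removed, with LAMB3 (1.07) and ITGA2 (0.97) highest and ITGB5 (−1.0) and LAMB2 (−0.84) lowest. ITGA2 was at 0.63 and LAMB2 at −0.40 with the GC trend removed, and LAMB2 was at −0.51 without shPAX8-1 libraries 3 and 4. Of 41 growth factor receptors, ligands and response genes 7 were higher and 12 lower (17.1% and 29.3%), and 11 and 14 with the GC trend removed. EREG (1.41, and 0.90 with the GC trend removed), an epidermal growth factor receptor ligand, and PHLDA1 (1.20) were higher, whereas TGFA, a ligand of the same receptor, was lower. PDGFRB, the platelet-derived growth factor receptor, had 413, 384, 214 and 189 CPM with shPAX8-1 and 877, 852, 655 and 745 CPM with shPAX8-2 (−1.38 ± 0.24, adjusted p = 0.0016), with no overlap.

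Of 79 cytosolic ribosomal protein genes 11 were higher and 7 lower with shPAX8-1 (13.9% and 8.86%, median 0.14). Without shPAX8-1 libraries 3 and 4, where calls over all genes also fell from 5772 to 3400, 3 were called, all lower, and the median was 0.03. With the GC trend removed 23 were higher and 6 lower. RPS20 (0.76) and RPS3A (0.72) were highest and lost their calls without those libraries (adjusted p = 0.23 and 0.61). Once the GC trend was removed, RPS20 was at 0.41 and RPS3A at 0.38, and RPS3A was not called (adjusted p = 0.10). RPL10 (−0.70) was lower with and without the libraries, and RPL13A (−0.54) was not called without them (adjusted p = 0.065).

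Of 75 nuclear genes of oxidative phosphorylation 24 were higher and 3 lower (32% and 4%, median 0.23). Without these libraries 8 were higher and 1 lower, with a median of 0.14, where 11.3% and 12.2% of all genes were called. NDUFB5 (1.21) and NDUFB3 (1.21), subunits of complex I, were highest, and NDUFB3 was at 0.74 with the GC trend removed and 0.67 without the libraries. SDHD (−0.63) and UQCRC1 (−0.57) were lowest. SDHD was at −1.0 with the GC trend removed and −1.01 without the libraries, and UQCRC1 was called in neither fit (−0.18, adjusted p = 0.11, and −0.27, adjusted p = 0.14). In OS-LM1 19 of 75 were higher and 1 lower, with NDUFB5 at 1.00 and SDHD at −0.81.

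Of 32 proteasome subunits 16 were higher and 1 lower (50.0% and 3.13%, median 0.32), and without these libraries 7 were called, all higher, with a median of 0.24. PSMD14 (1.14) and PSMA3 (1.11) were highest. They were at 0.49 and 0.62 with the GC trend removed. Without the libraries PSMD14 was at 0.66 and PSMA3 was not called (0.61, adjusted p = 0.053). PSMC3 (−0.40) was called neither with the GC trend removed (−0.08, adjusted p = 0.60) nor without the libraries (−0.21, adjusted p = 0.27).

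The 2 hairpins were also compared in OS-LM1, with 4 libraries of each. There 14075 genes were tested, and 1832 (13.0%) were higher and 1754 (12.5%) lower with shPAX8-1. PAX8 had 85.6, 78.4, 59.8 and 89.2 CPM with shPAX8-1 and 76.2, 63.8, 97.0 and 79.9 CPM with shPAX8-2 in that line. These ranges overlapped throughout (log2 difference −0.01 ± 0.14, adjusted p = 0.97 by edgeR). The difference between the lines for PAX8 was itself past the threshold, at 1.16 ± 0.23 (adjusted p = 0.0015). In all, 3453 of 15101 genes (22.9%) differed between the lines in their response to the choice of hairpin.

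ANKRD1 was among the genes with the largest difference between the lines: in OS-LM1 it had 8.36, 7.41, 8.91 and 8.20 CPM with shPAX8-1 and 18.9, 21.2, 18.8 and 18.9 CPM with shPAX8-2, a log2 difference of −1.23 against 2.85 in 786-M1A (difference −4.09 ± 0.15, adjusted p = 1.8e-12). MMP1, the interstitial collagenase, had 111, 89.2, 139 and 92.9 CPM with shPAX8-1 and 2.94, 3.82, 3.55 and 3.04 CPM with shPAX8-2 in OS-LM1 (5.02 ± 0.16). In 786-M1A it had 7.11, 7.63, 10.1 and 11.2 CPM against 3.19, 3.24, 3.56 and 3.20 CPM (1.45 ± 0.19). Thus MMP1 was higher with shPAX8-1 in both lines and differed between them by 3.56. Its neighbour MMP3, stromelysin, was at 359 to 394 CPM with shPAX8-1 and 24.8 to 30.5 CPM with shPAX8-2 in OS-LM1, but at no more than 0.884 CPM in any of the 8 libraries of 786-M1A, where it was too low to be tested.

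LINC01279 (2.72) and STXBP5-AS1 (3.27), both noncoding, were higher with shPAX8-1 in OS-LM1 and did not pass in 786-M1A (−0.42, adjusted p = 0.13, and 0.33, adjusted p = 0.065). With the GC trend removed, LINC01279 was called lower in 786-M1A (−0.65, adjusted p = 0.0085 by edgeR). STXBP5-AS1 was at −0.08 in that fit (adjusted p = 0.51) and at 0.18 without shPAX8-1 libraries 3 and 4. KRTAP2-3 did not pass in OS-LM1 (0.40, adjusted p = 0.13). CXCL8 was far more abundant in OS-LM1, at 675 to 1200 CPM, and its log2 difference there was 0.20 (adjusted p = 0.36). GDA, FAM174B, WISP2 and MAMDC2 were also among the largest differences between the lines, but GDA, FAM174B and WISP2 were at no more than 0.683 CPM in all 8 libraries of 786-M1A, and MAMDC2 at no more than 0.605 CPM in those of OS-LM1, so their fitted differences depend on the prior count and are no measure of a fold.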

How the data were processed

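Stranded mRNA-seq was analysed, and the 8 hairpin libraries of 786-M1A form the comparison. The authors mapped reads to hg38 with Bowtie2 and RSEM (named in the submitters' processing notes and the methods, versions not given in the sources used here) and deposited, per gene and library, expected counts, TPM, FPKM and transcript lengths. Per the labels a stranded KAPA kit was used, whereas the methods name another kit, and the doxycycline time is not given. The deposited expected counts were rounded to whole numbers and tested. Deposited TPM values were used for PAX8 alone (7.97 ± 2.00 with shPAX8-1 and 17.8 ± 0.957 with shPAX8-2, SD, n = 4 each). FPKM and lengths deposited by the authors were not used.

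Genes were filtered with filterByExpr, scaled by TMM and fitted with edgeR 4.0.16 (glmQLFit and glmQLFTest, R 4.3.3, no covariates, 8 libraries), with Benjamini-Hochberg adjustment over all genes tested. Log2 differences are shPAX8-1 minus shPAX8-2, from the edgeR fit with its default prior count. CPM are TMM-scaled over all 24 libraries, and log2 CPM of single libraries were computed with a prior count of 2. OS-LM1 was fitted likewise, and the difference between lines as an interaction over 16 libraries. The GC trend was removed with an offset per library, a spline of GC content with 5 degrees of freedom, from the longest transcript of each gene in GENCODE. Sites and coordinates were read from GRCh38. The fit was tested on simulated data. No pair of libraries agreed within sampling noise.

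Named genes were PAX8, the other genes the study follows, the 8 largest differences in each direction (adjusted p under 0.05, average log2 CPM of at least 3, no overlap, same direction with the GC trend removed), up to 2 genes in each direction per list, and 5 in each direction for the difference between lines. Other list members and the seed-matched genes are named as examples chosen after their values were seen. Some named items are not reported here, although counts and medians of lists include them. The comparison, members and lists were chosen with earlier results of these data known. Alternatives were DESeq2 1.42.0, other scaling and filters, GC removal, thinning, a replicate block and left-out libraries. Counting intervals are not given, since the spread between libraries exceeds counting error. Library totals ranged from 11634419 to 19928571 counts.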

Additional observations from a re-analysis of the deposited data

Results flagged for a closer look

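In 6 of the 214 groups of 4 libraries checked, 1 library lay far from the other 3 by Dixon's test, where chance gives about 1 in 20 groups. MYEOV was high in shPAX8-1 library 1 (34.8 CPM). The other 5 were in shPAX8-2 library 3, the library with the fewest counts: LIPG (1.57 CPM), CDKN1A (382 CPM) and ITGB5 (449 CPM) were low there, and SNAI2 (45.7 CPM) and MMP1 (3.56 CPM) high.

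The choice of hairpin gave a different log2 difference in OS-LM1 than in 786-M1A for 69 of 107 named genes, by the interaction term of edgeR over 16 libraries at an adjusted p under 0.05. Values are OS-LM1 minus 786-M1A. The difference was positive for MMP1 (3.56), LINC01279 (3.12), WISP2 (3.02), STXBP5-AS1 (2.94), MMP3 (2.84), PSKH1 (2.34), MMP25-AS1 (2.28), RAB36 (2.08), BTG2 (1.93), ZBTB47 (1.71), DDB2 (1.64) and CXCR4 (1.52). It was also positive for MMP24 (1.47), ABCC3 (1.39), TRIM22 (1.36), MMP2 (1.28), P2RY6 (1.26), EGLN3 (1.17), PAX8 (1.16), CDKN1A (1.13), TGFA (1.11), ANPEP (1.05), FURIN (1.00) and PARP9 (0.98). Smaller positive values were found for HIF1AN (0.91), UHRF1 (0.86), MCM5 (0.82), TNFAIP2 (0.79), ITGB5 (0.79), DGCR8 (0.78), BSG (0.74), PAX2 (0.69) and EPAS1 (0.51). The difference was negative for GDA (−4.77), FAM174B (−4.47), ANKRD1 (−4.09), KRTAP2-3 (−3.51), MAMDC2 (−2.93), CXCL8 (−2.79), IDI1 (−2.24), LIPG (−2.24), SLC30A1 (−2.06), FOXC1 (−2.0), ADAMTS6 (−1.94) and MXD1 (−1.65). Also negative were SLC7A11 (−1.63), CDK1 (−1.63), STARD4 (−1.60), TTK (−1.55), AKR1C1 (−1.48), ABI3BP (−1.40), HNF4G (−1.39), ATP6V0D2 (−1.38), CLDN1 (−1.26), GADD45A (−1.21), MANF (−1.10) and LAMB3 (−1.09). The smallest negative values were those of PLK2 (−1.04), PSMD14 (−0.95), POLR1B (−0.92), CLDN12 (−0.92), IL1B (−0.92), CDK6 (−0.89), PSMA3 (−0.89), DDIT3 (−0.88), AGO3 (−0.81), ITGA2 (−0.77), MYC (−0.77) and PDIA6 (−0.75). GDA and FAM174B had 0 counts in all 4 shPAX8-2 libraries of 786-M1A, so their values depend on the prior count. Other values rest on levels near the floor and are uncertain too. MMP3 and WISP2 did not exceed 0.884 and 0.683 CPM in 786-M1A, nor MAMDC2 0.605 CPM in OS-LM1. With shPAX8-1 and shPAX8-2 in OS-LM1, ATP6V0D2 averaged 0.66 and 0.29 CPM, and CXCR4 0.71 and 0.82 CPM. Many of the 69 genes were named for their size in 786-M1A, and 5 in each direction because this same test called them. Their number therefore does not say how often the lines differ. Over all genes, 22.9% of 15101 were called.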

How the results depend on the processing

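The count of 5772 genes that differed between the hairpins moved to 8886 without shPAX8-1 libraries 1 and 2 and to 3400 without libraries 3 and 4. The cause was not tested. At an adjusted p under 0.01, a stricter cut on the same fit, the count was 2881. Leaving out each library in turn gave 3944 to 7249 genes, 2027 to 3737 higher and 1917 to 3512 lower. In OS-LM1 this gave 2709 to 4276, and for the difference between lines 2605 to 4627. PAX8 ranged from −1.28 to −1.08 and the GC slope difference from −0.49 to −0.31. The slope difference of −0.49, without shPAX8-1 library 1, had an exact permutation p of 0.0286, which with 3 libraries against 4 is computed over fewer arrangements. DESeq2 called 6352 genes, DESeq2's size factors in edgeR 5755, no filter 5512, thinned libraries 5423, all 16 libraries together 6851, libraries 1 and 2 of both constructs alone 5167 and libraries 3 and 4 alone 8230 (both chosen after seeing the data).

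Same-numbered libraries of the 2 constructs correlated in their deviations by 0.312, 0.213, 0.390 and 0.053, so not every pair was above 0.1 and the numbers were not taken to pair the libraries. The shPAX8-1 libraries 1 and 4 correlated best with shPAX8-2 libraries 2 and 3 (0.432 and 0.438). Taken within number, the GC slope differed by −0.15, −0.32, −0.44 and −0.64 (exact sign-flip permutation test, two-sided p = 0.125, the smallest it can give, chosen after seeing the data). With the replicate number as a block 7266 genes were called, and 7013 with the GC trend removed as well. In OS-LM1 the block gave 2418.

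Of 2100 refits of 105 named genes besides PAX8, 1969 kept direction and side of the threshold, 118 lost the call, 7 gained one and 6 changed direction. The last were, with the GC trend removed and with the block added to that, TUBB4B (0.0066 and 0.0063), TNFAIP2 (0.090 and 0.088) and STXBP5-AS1 (−0.084 and −0.085), where the GC trend itself is what was changed. Of 920 list counts 156 moved by over 1.5 times. At 4 libraries a group, genes under the filter on low counts were not tested, and a p that missed the threshold does not show equal levels.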
